A study of Mus musculus with 24 samples.

Results

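The transcripts described here encode 9 enzymes that build triglyceride in the liver: the phosphatidate phosphatases Lpin1, Lpin2 and Lpin3 (lipins) and the acyltransferases Gpam, Agpat2, Agpat3, Dgat1, Dgat2 and Mogat1. The members were chosen by name, and every array probe whose accession maps to one of these symbols was taken, which gave 19 probes of 41174 non-control probes and 9 genes of the 17910 named genes that passed the filter on dim probes. All 9 members passed that filter. Of the 19 probes, 18 were well above background in the liver channel on every array, and the remaining Mogat1 probe was so on 23 of 24.

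Livers of male C57BL/6N mice were measured on 24 Agilent 2-colour arrays, with liver RNA in Cy5 and a reference RNA in Cy3 on every array. The 6 groups were pair-fed controls sampled after 10 days (n = 3) or 8 weeks (n = 4), ethanol-fed mice after 8 weeks (n = 5), mice given 1 ethanol binge of 5 g/kg after 10 days (n = 3) or 8 weeks (n = 5) of the ethanol diet, and mice fed ethanol for 8 weeks with such a binge 2 times per week (n = 4). These are called the 10-day and 8-week pair-fed, 8-week ethanol, 10-day and 8-week single-binge and multiple-binge groups, and all carry the same inbred background with no allele or transgene named. The labels do not say that replicates are separate animals, nor how long after a binge livers were taken, so p-values measure the spread between these samples, which may be technical. The labels call the reference an assorted mouse RNA and also give its tissue as liver, so its makeup is uncertain, and each value is a log2 Cy5/Cy3 ratio to it.

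Triglyceride is assembled on glycerol-3-phosphate. Gpam adds the first fatty acyl chain at the outer mitochondrial membrane, Agpat2 and Agpat3 add the next to make phosphatidate, and the lipins remove its phosphate to give diacylglycerol. Dgat1 and Dgat2 add the last acyl chain, and Mogat1 makes diacylglycerol by another route, from monoacylglycerol. Lipin-1 is also known as a partner of the transcriptional coactivator PGC-1α in liver, and its gene is known to be induced by fasting and glucocorticoids.

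The 8-week pair-fed, 8-week ethanol and 8-week single-binge arrays were scanned in one session, both 10-day groups in another, and the multiple-binge arrays in a session of their own. The headers of the multiple-binge arrays also name another array design file than those of all other arrays, and these arrays lay on slides of their own. Comparisons that cross sessions therefore cannot be told apart from the session, nor those of the multiple-binge group from the design file. Between arrays of the first session the reference channel had a median r over probes of 0.985, which was 0.978 against the 10-day session and 0.926 against the multiple-binge session (probes are not independent replicates). The median signal per array was 95.5 to 247 intensity units in Cy5 and 161.5 to 505 in Cy3, and 70.7% to 86.8% of probes were well above background in Cy5. Markers of hepatocytes were well above background on all 24 arrays, as were all but 1 marker with a probe in each of the lists for Kupffer cells, neutrophils, sinusoidal endothelium, stellate cells, lymphocytes, adipocytes, and pancreas and gut. In whole liver, fewer cells of a type and less RNA per cell cannot be told apart.

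The promoter windows of Lpin1, Gpam and Lpin2 are shown because these members had the largest differences that passed a test within a scan session. They come from RefSeq (GRCm38.p6), which held windows for 7 of the 9 members, and each holds 250 bases before and 50 bases after the most upstream start listed. Capitals mark matches on either strand to any of 5 short motifs: CACGTG (E-box), CCAAT (the box bound by NF-Y), AGGTCA (nuclear receptor site), TCACNCCAC (sterol element core) and TTGCNNAA (C/EBP core).
Lpin1, chr12:16610917-16611216, minus strand: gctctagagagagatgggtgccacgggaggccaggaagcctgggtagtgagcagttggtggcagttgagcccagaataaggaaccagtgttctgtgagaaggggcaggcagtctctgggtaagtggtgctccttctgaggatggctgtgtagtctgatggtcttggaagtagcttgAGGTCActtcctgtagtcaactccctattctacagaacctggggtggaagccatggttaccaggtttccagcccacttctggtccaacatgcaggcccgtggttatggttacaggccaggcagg
Gpam, chr19:55127189-55127488, minus strand: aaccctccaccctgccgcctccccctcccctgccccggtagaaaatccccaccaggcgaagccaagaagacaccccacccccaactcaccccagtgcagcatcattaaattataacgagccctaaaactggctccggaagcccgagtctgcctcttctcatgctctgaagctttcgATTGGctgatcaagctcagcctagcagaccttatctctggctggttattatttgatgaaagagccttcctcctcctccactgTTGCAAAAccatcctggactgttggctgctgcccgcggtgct
Lpin2, chr17:71183282-71183581, plus strand: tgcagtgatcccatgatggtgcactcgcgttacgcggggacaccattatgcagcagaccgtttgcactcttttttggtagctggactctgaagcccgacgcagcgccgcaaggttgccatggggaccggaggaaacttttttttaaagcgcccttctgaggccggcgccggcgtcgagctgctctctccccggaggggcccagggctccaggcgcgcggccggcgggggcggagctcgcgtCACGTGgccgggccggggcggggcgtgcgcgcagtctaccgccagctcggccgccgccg

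The Lpin1 window held 1 AGGTCA, a motif found in 16.3% of all 32851 windows of this length. The Gpam window held the NF-Y box on the opposite strand (37.4% of all windows) and a C/EBP core (10.8%). The Lpin2 window held an E-box 9 bases before the start (7.15% of all windows). No shown window overlapped 2 motifs, and TCACNCCAC, present in 1.24% of all windows, matched in none of the 11 windows of members. These matches describe letters in the windows and do not show binding.

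Lpin1 differed most between arrays. Its level is given as log2 Cy5/Cy3 with all spots kept, while tests left out spots that the scanner software marked as uneven or outlying. The shares of all genes whose groups do not overlap, or that keep 1 direction on every shared slide, were not counted. Statements on overlap and on agreement between slides thus only describe these arrays. In the 8-week pair-fed group Lpin1 was at -0.29, 0.64, -0.28 and -0.04. In the 8-week ethanol group it was at -1.35, -1.97, -1.10, -0.95 and -0.74. In the 8-week single-binge group it was at 0.55, 0.27, 0.48, 0.95 and 0.16. All 5 single-binge arrays lay above all 5 ethanol arrays, while they overlapped the pair-fed arrays. In the 10-day pair-fed group it was at -0.83, -1.14 and -0.91, and in the 10-day single-binge group at -1.57, 0.05 and -0.10. In the multiple-binge group it was at -0.49, -3.49, -0.42 and -3.18. Replicates 2 and 4 of that group were far below replicates 1 and 3, and, as replicates 1 and 2 shared a slide and 3 and 4 another, this split lay within both slides.

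**Figure D1:**
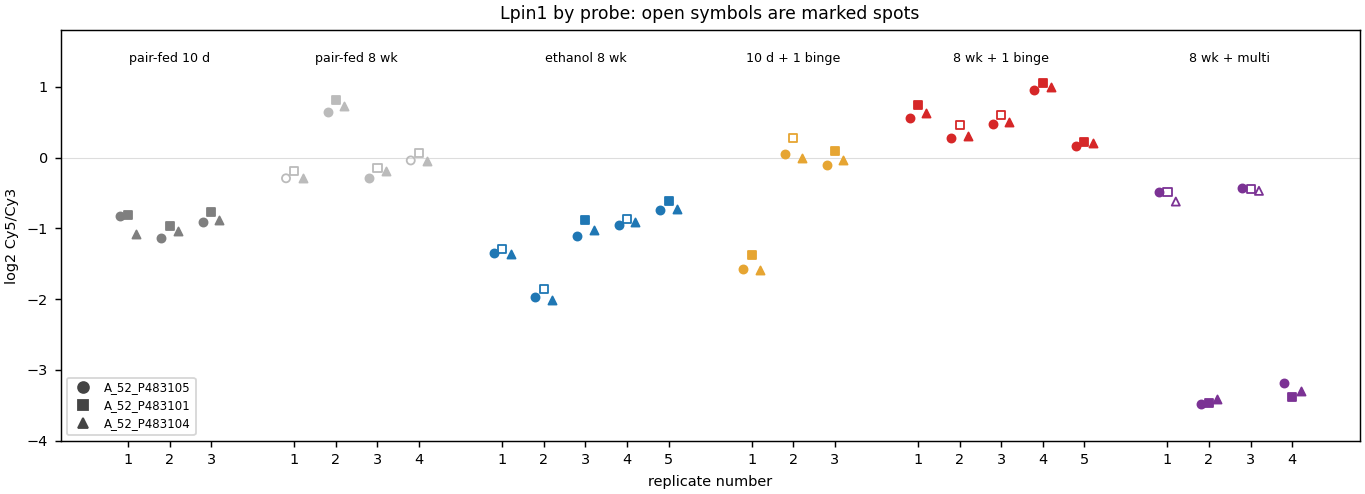
Log2 Cy5/Cy3 of the 3 Lpin1 probes (circles, squares, triangles) on each of the 24 arrays, by group and replicate number, with open symbols for marked spots. The probes follow each other on every array, including the multiple-binge replicates 2 and 4 near -3.49 to -3.18 on the probe used.

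The 3 Lpin1 probes correlated over the 24 arrays at r = 0.997 to 0.998, a description of probes that share RNA and array. The difference between the 8-week single-binge and ethanol groups was 1.71, 1.72 and 1.74 on the 3 probes. The split of the multiple-binge arrays was thus measured by every Lpin1 probe.

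Lpin2 is the major lipin of hepatocytes. It was at 0.62, 0.76, 0.46 and 0.66 in the 8-week pair-fed group and at 0.24, -0.17, 0.39, 0.53 and 0.50 in the 8-week ethanol group. In the 8-week single-binge group it was at -2.22, 0.63, -0.14, -0.52 and -0.77. Single-binge replicate 2 lay within the pair-fed range and the other 4 below it, with replicate 1 lowest. In the 10-day groups Lpin2 was at 0.68, 1.02 and 0.75 (pair-fed) and at -0.03, -0.05 and -0.59 (single binge), without overlap. In the multiple-binge group all 4 Lpin2 spots were marked, so it had no tested value there, and with marked spots kept they were at 0.59, -1.19, 0.63 and -1.16. Replicates 2 and 4 were again the low arrays.

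Lpin3, another phosphatidate phosphatase of the family, gave a dim signal of 90 to 238 Cy5 intensity units and a narrow range. It was at -0.39, -0.37, -0.51 and -0.32 in the 8-week pair-fed group and at -0.20, -0.48, -0.47, -0.14 and -0.54 in the 8-week ethanol group. It was at -0.16, -0.13, 0.12, 0.02 and -0.09 in the 8-week single-binge group and at 0.08, -0.03, 0.09 and -0.25 in the multiple-binge group. Both binge groups at 8 weeks lay above every pair-fed array, while ethanol replicates 1 and 4 reached into the binge range. In the 10-day groups it was at -0.51, -0.45 and -0.37 (pair-fed) and at -0.57, -0.18 and -0.31 (single binge), which overlap.

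Gpam was measured by 1 dim probe of 66 to 741 Cy5 intensity units. It was at 0.23, -0.17, -0.14 and 0.01 in the 8-week pair-fed group, at 1.34, 0.04, 0.39, -0.47 and 0.10 in the 8-week ethanol group, and at -1.36, -0.24, -0.58, -0.16 and -0.83 in the 8-week single-binge group. The ethanol and single-binge groups overlapped only through ethanol replicate 4. Ethanol replicate 1 was the highest Gpam array and single-binge replicate 1, on the same slide, the lowest. Gpam was at -0.10, 0.32 and 0.26 (10-day pair-fed), at -0.20, -0.48 and -0.10 (10-day single binge) and at 0.01, -0.04, -0.25 and 0.19 (multiple binge). The 10-day groups did not overlap, by a gap of 0.004.

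Agpat2 was at -0.03, -0.54, -0.14 and 0.21 in the 8-week pair-fed group, at 0.63, 0.24, 0.06, 0.05 and -0.31 in the 8-week ethanol group, and at -2.04, -0.55, -0.59, -0.20 and -0.80 in the 8-week single-binge group. Single-binge replicate 1 was the lowest array, as for Lpin2 and Gpam. In the multiple-binge group Agpat2 was at -0.55, 0.36, -0.44 and 0.42. Here replicates 2 and 4 were the high ones, opposite in order to Lpin1. It was at -0.74, -0.51 and 0.01 (10-day pair-fed) and at 0.33, -0.01 and 0.29 (10-day single binge).

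Dgat1 was at -0.17, 0.19 and 0.03 in the 10-day pair-fed group and at -0.73, -0.50 and -0.35 in the 10-day single-binge group, without overlap. Over the 8-week groups it was at -0.16, -0.39, -0.48 and -0.04 (pair-fed), at -0.26, -0.28, -0.24, -0.09 and -0.22 (ethanol), at -0.34, -0.37, 0.02, 0.03 and -0.07 (single binge) and at -0.26, -0.12, -0.04 and -0.07 (multiple binge). The 8-week groups all overlapped one another.

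The remaining members were Dgat2, which adds the last acyl chain, Agpat3 and Mogat1. Dgat2 ranged from -0.95 (8-week single-binge replicate 1) to 0.47 (8-week single-binge replicate 2), Agpat3 from -0.46 to 0.35 and Mogat1 from -0.23 to 0.28 over all 24 arrays. The 3 Mogat1 probes correlated at r = 0.049 to 0.608 and the Agpat3 probes at r = 0.432, so these genes' small differences depend on the probe. Probes of Lpin2 (r = 0.979), Agpat2 (0.994), Dgat1 (0.852) and Dgat2 (0.918 to 0.958) followed each other more closely.

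**Figure D2:**
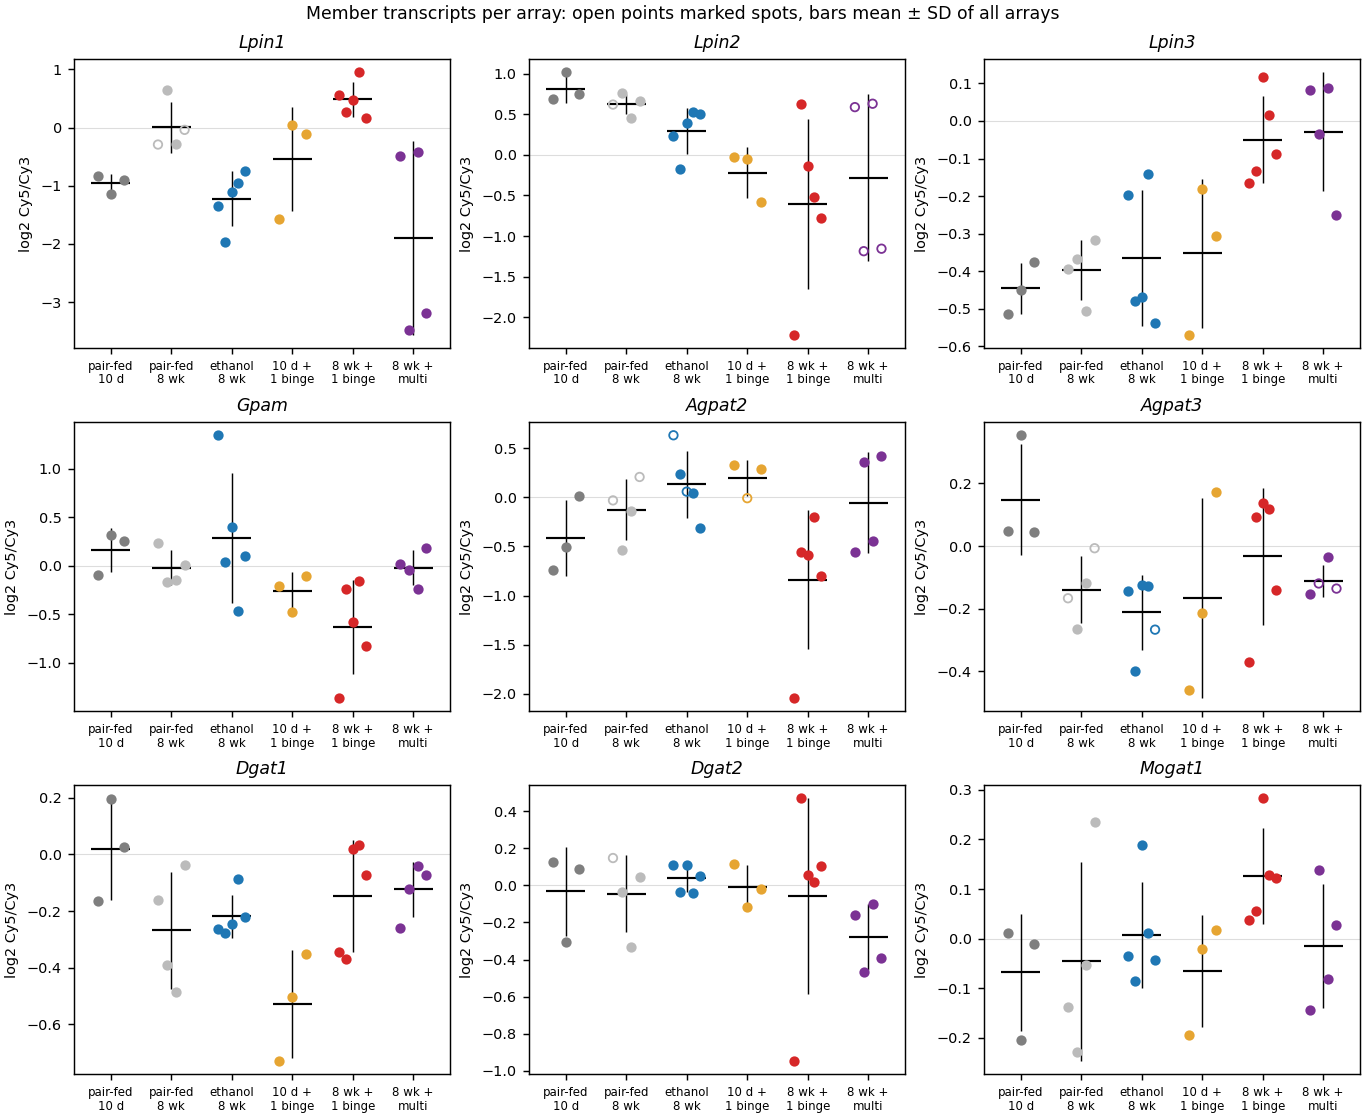
Log2 Cy5/Cy3 of each member on the 24 arrays, by group; each point is an array, open points are marked spots, and bars give the mean and SD of all arrays of the group. Lpin1 in the 8-week single-binge group (0.16 to 0.95) sits above the 8-week ethanol group (-1.97 to -0.74), and the multiple-binge arrays split between -0.42 and -3.49.

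The effect of 1 binge on top of the long diet was read from the 8-week single-binge and 8-week ethanol groups, which shared all 5 slides. Lpin1 rose and Lpin3 rose, while Gpam, which starts glycerolipid synthesis, fell. Lpin1 rose 3.22-fold, by 1.69 ± 0.47 (log2 fold change ± SE, n = 5 and 5, limma adjusted p = 0.0153), and was higher on 5 of 5 slides, by 1.11 to 2.24. Gpam fell by 0.92 ± 0.24 (n = 5 and 5, limma adjusted p = 0.00854), and was lower on 5 of 5 slides, with differences from -2.70 to -0.26 and a median of -0.35. Lpin3 rose by 0.31 ± 0.09 (n = 5 and 5, limma adjusted p = 0.0211) and was higher on 5 of 5 slides, by 0.03 to 0.59. Mogat1, which was not called, was also higher on 5 of 5 slides, by 0.07 to 0.17. So 3 of 9 members were called, against 15.6% of all 17593 genes tested. The member median was 0.06 and that of all genes 0.01.

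With the slide as a fixed block Lpin1 kept its difference but had an adjusted p of 0.052, while Gpam and Lpin3 were called (0.0307 and 0.0367, limma). The Gpam difference was -0.65 without ethanol replicate 1 and -0.73 without single-binge replicate 1, and was called both times (limma adjusted p = 0.0242 and 0.0309). The Lpin3 call was lost without ethanol replicate 2, 3 or 5 or single-binge replicate 3 (limma adjusted p = 0.0579 to 0.0669). In a fit of only the groups compared, the calls of Gpam (limma adjusted p = 0.0674) and Lpin3 (0.0576) were lost. With the scanner's own ratio both were called and larger, Gpam at -1.57 and Lpin3 at 0.51.

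Lpin2 and Agpat2 did not pass here. Lpin2 differed by -0.91 ± 0.32 (limma adjusted p = 0.0655). It passed with the slide as a random block (limma adjusted p = 0.0472) but not as a fixed block (0.0755). It also passed without single-binge replicate 2 (-1.22, adjusted p = 0.00506) and was -0.51 without replicate 1. Agpat2 differed by -0.85 ± 0.32 over 5 and 3 unmarked arrays (limma adjusted p = 0.0815), and with marked spots kept it passed at -0.97 (adjusted p = 0.0116). It was -0.55 without single-binge replicate 1, and passed without replicate 4 (adjusted p = 0.0353). Agpat3, Dgat1, Dgat2 and Mogat1 gave limma values of 0.16, 0.06, -0.11 and 0.11, none passing.

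**Figure D3:**
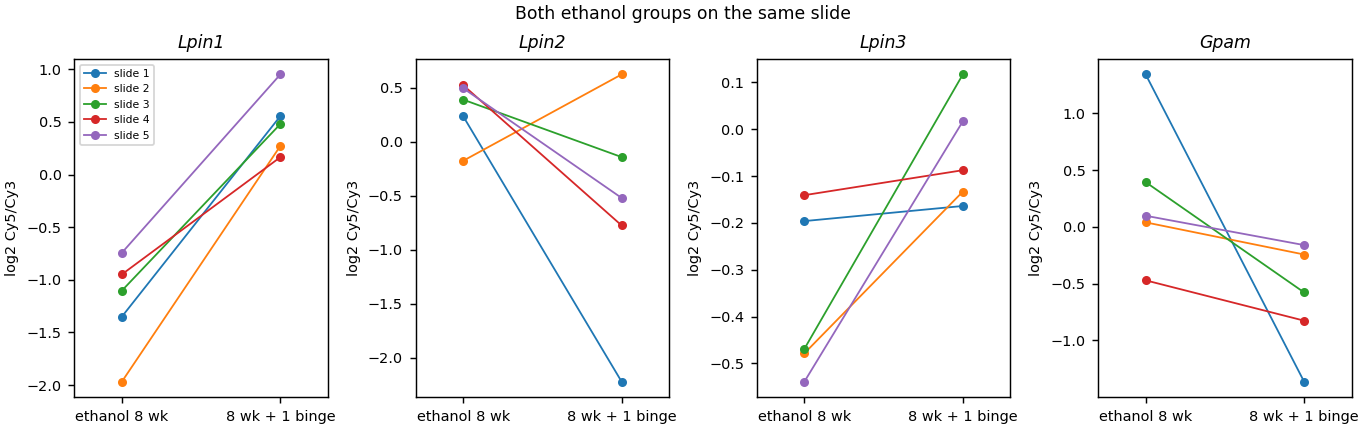
Log2 Cy5/Cy3 of Lpin1, Lpin2, Lpin3 and Gpam on the 5 slides that held an 8-week ethanol and an 8-week single-binge array, joined by slide. Lpin1 and Lpin3 are higher and Gpam lower with the binge on every slide, while Lpin2 is higher on slide 2 and lower on the other 4.

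Each channel alone was read after scaling the channels between arrays. In Cy5 alone Lpin1 differed by 1.68 ± 0.48 (limma adjusted p = 0.031) and Gpam by -1.04 ± 0.23 (adjusted p = 0.00496), both called, while Lpin3 differed by 0.31 (adjusted p = 0.0695). The reference channel differed by -0.01 for both lipins and by -0.12 for Gpam, none passing. Thus 2 of 9 members were called in Cy5 alone, against 8.19% of all genes.

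Against the 8-week pair-fed group, the same single-binge arrays had lower Lpin2 and higher Lpin3. Lpin2 fell by 1.23 ± 0.38 (n = 5 and 3, limma adjusted p = 0.0301) and was lower on 4 of 4 shared slides, with differences from -1.44 to -0.13. Lpin3 rose by 0.35 ± 0.10 (n = 5 and 4, limma adjusted p = 0.0168) and was higher on 4 of 4 slides. These were 2 of 9 members, against 15.4% of all 17471 genes. With marked spots kept, Gpam and Agpat2, which were not called, were also lower on 4 of 4 shared slides. This comparison and the previous one share the single-binge arrays, so their values are not independent.

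The Lpin2 call was lost with the slide as a fixed block (limma adjusted p = 0.117), and its value was -0.83 (adjusted p = 0.0266) without single-binge replicate 1. It was also lost without pair-fed replicate 2, 3 or 4 or single-binge replicate 5 (adjusted p = 0.0565 to 0.0923), with median centring (0.098) and with only the groups compared (0.149). The Lpin3 call was lost without pair-fed replicate 3 (0.31, limma adjusted p = 0.064), and its value was 0.67 with the scanner's own ratio. Lpin1 differed by 0.31 ± 0.62 (n = 5 and 2) and Gpam by -0.61 ± 0.25 (limma adjusted p = 0.106). In Cy5 alone Lpin3 was the 1 member called (0.44, adjusted p = 0.0117), against 8.55% of all genes, and Lpin2 was at -1.28 (adjusted p = 0.0523).

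The long ethanol diet without a binge was compared with 8-week pair feeding. No member was called by limma (0 of 9, with 1 at an unadjusted p under 0.05), against 0.138% of all 17424 genes. That 1 was Lpin1, at -1.38 ± 0.62 (n = 5 and 2 unmarked arrays, limma adjusted p = 0.641). The SE of every Lpin1 difference in the main fit pools the spread within all 6 groups, including the split multiple-binge arrays. With marked spots kept Lpin1 was lower on 4 of 4 shared slides, with differences from -2.61 to -0.45. Lpin2 and Agpat3 were also lower on 4 of 4. All 5 ethanol arrays lay below all 4 pair-fed arrays for Lpin1. The other 8 members differed by between -0.32 and 0.35.

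**Figure D4:**
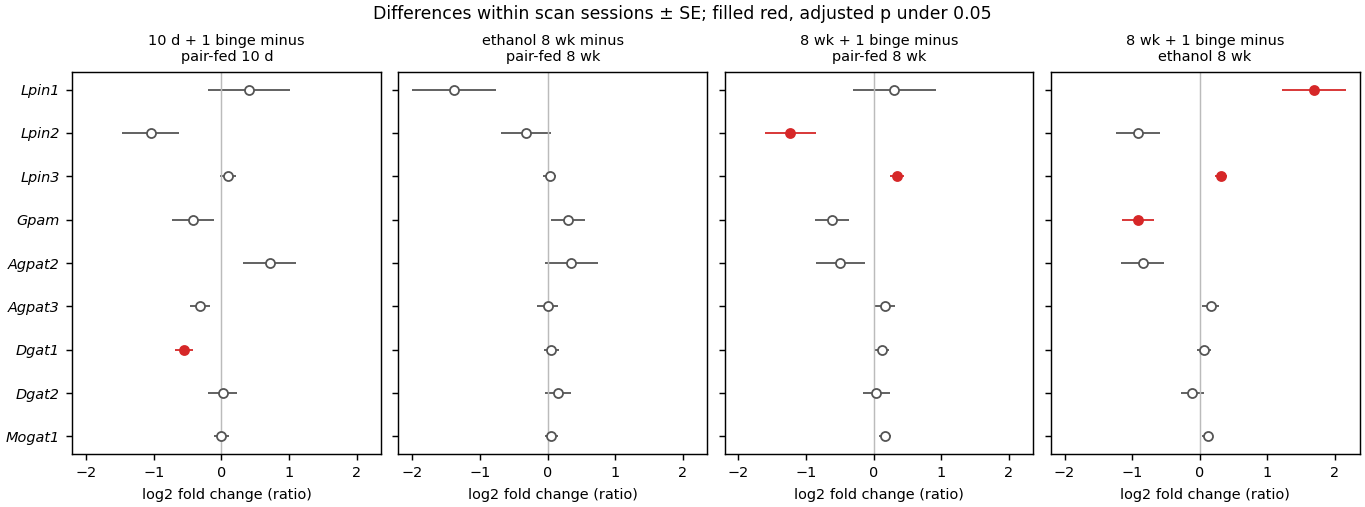
Log2 fold change of the ratio with its SE for each member in the 4 comparisons within a scan session; filled red points have an adjusted p under 0.05. Dgat1 is the 1 member called after 10 days, and Lpin1, Lpin3 and Gpam are called between the 8-week ethanol groups.

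After 10 days of ethanol with 1 binge, Dgat1, which makes triglyceride in the endoplasmic reticulum, was lower than in 10-day pair-fed mice. It fell by 0.55 ± 0.13 (n = 3 and 3, limma adjusted p = 0.00967), was lower on both shared slides, and fell by 0.54 with the slide as a fixed block (adjusted p = 0.0346). All other members except Agpat3 and Dgat2 also kept 1 direction over both slides. The other Dgat1 probe differed by -0.51. This was 1 of 9 members called (3 at an unadjusted p under 0.05), against 7.01% of all 17411 genes.

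The Dgat1 call was lost without pair-fed replicate 2 (-0.47, limma adjusted p = 0.0647) or single-binge replicate 1 (-0.45, adjusted p = 0.0513), in Cy5 alone (-0.66, adjusted p = 0.0888) and with median centring (-0.52, adjusted p = 0.22). Lpin2 differed by -1.04 ± 0.42 (adjusted p = 0.162), and passed in a fit of these groups alone (adjusted p = 0.00356) and with array weights (adjusted p = 0.0357). Agpat2 differed by 0.71 over 2 and 3 arrays and Lpin1 by 0.41 ± 0.60, which was 0.91 without single-binge replicate 1. None of these passed.

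The difference from pair feeding of ethanol diet plus 1 binge was compared between the durations by an interaction term, 8 weeks minus 10 days. With no 10-day ethanol group without a binge among the samples, diet and binge cannot be told apart in it, and the durations lay in different scan sessions. Dgat1 differed, by 0.67 ± 0.17 (limma adjusted p = 0.0254): it was -0.55 after 10 days and 0.12 after 8 weeks. This was 1 of 9 members, against 3.28% of all 17170 genes. The call was lost with the slide as a fixed block (0.69, adjusted p = 0.0506), in Cy5 alone (0.71, adjusted p = 0.243), with median centring (adjusted p = 0.305), the scanner ratio (0.0561), the deposited values (0.0523) or only the groups compared (0.0907), and without any one of 5 arrays, namely 8-week pair-fed replicate 2 or 3, 10-day pair-fed replicate 2 or 10-day single-binge replicate 1 or 2. For Lpin2 the interaction was -0.19 ± 0.56 and for Agpat2 -1.21 ± 0.53 (adjusted p = 0.275).

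The pair-fed groups of 8 weeks and 10 days lay in different scan sessions. No member was called by limma (0 of 9, with 2 at an unadjusted p under 0.05, Agpat3 and Dgat1), against 1.62% of all 17290 genes. Lpin1 was 2.15-fold higher at 8 weeks in the ratio, which did not pass (adjusted p = 0.459), with the reference channel itself at -0.56 (adjusted p = 0.0196).

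The multiple-binge group was compared with each other 8-week group, in all cases across scan sessions and design files. The group, the session and the design file cannot be told apart there. Lpin1 was lower after multiple binges than after 1 binge and lower than in pair-fed mice, while Lpin3 was higher than in the pair-fed and ethanol groups. Against 1 binge Lpin1 fell by 2.38 ± 0.49 (n = 4 and 5, limma adjusted p = 0.00128), a call kept in all 23 alternatives run, with differences from -2.87 to -1.85. Against pair feeding it fell by 2.07 ± 0.64 (n = 4 and 2, adjusted p = 0.0253), and that call was lost in a fit of only the groups compared (adjusted p = 0.136), and at -1.54 and -1.65 without multiple-binge replicate 2 or replicate 4 (adjusted p = 0.0675 and 0.0755). Against the 8-week ethanol group Lpin1 differed by -0.69 ± 0.49 (limma adjusted p = 0.321). The multiple-binge means of Lpin1 cover 2 low arrays (replicates 2 and 4) and 2 higher ones. No alternative left out both low arrays.

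Lpin3 rose by 0.37 ± 0.10 against pair feeding (limma adjusted p = 0.014) and by 0.34 ± 0.10 against ethanol alone (adjusted p = 0.0143), the latter lost without multiple-binge replicate 3 (0.30, adjusted p = 0.0545). With median centring neither was called (0.25 and 0.21, limma adjusted p = 0.0792 and 0.127), and with the scanner's own ratio both were, at 0.76 and 0.59. Agpat2 rose by 0.78 ± 0.29 against 1 binge (adjusted p = 0.048), and that call was lost without single-binge replicate 1 (0.49), 3 or 5 or multiple-binge replicate 2 or 4 (adjusted p = 0.0557 to 0.165). It was called in 12 of 23 alternatives, and not with median centring, no filter on dim probes, the mean of all probes, the slide as a random block or only the groups compared (limma adjusted p = 0.0515 to 0.216). The members called were 2 of 8 against pair feeding, 1 of 8 against ethanol and 2 of 8 against 1 binge, where 20.8%, 25.4% and 30.0% of all genes were called.

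The reference channel differed along with these values. In Cy3 alone 7, 6 and 6 of the 8 members passed in the same order of comparisons, and 50.7%, 50.7% and 50.7% of all genes did. Differences in Cy3 were -0.66, -0.66 and -0.73 for Mogat1, -0.71, -0.56 and -0.65 for Dgat1 and -0.98, -0.81 and -0.98 for Agpat2, whereas Dgat2 was higher by 0.56, 0.65 and 0.58. In Cy5 alone 3, 2 and 4 members passed, against 49.8%, 52.5% and 52.1% of all genes. Mogat1 was called lower in Cy5 alone in all 3 comparisons, at -0.63, -0.69 and -0.88, with ratios of 0.03, -0.03 and -0.14 that did not pass.

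Of the calls in the ratio, Lpin1 was called lower in Cy5 alone too, at -2.40 and -2.58 against pair feeding and 1 binge (limma adjusted p = 0.00445 and 0.000229). Lpin3 differed in Cy5 alone by 0.18 and 0.05 (adjusted p = 0.191 and 0.709), with Cy3 at -0.19 and -0.28. Agpat2 differed by -0.19 in Cy5 alone against 1 binge, opposite to its ratio. The part of the reference in the Lpin3 and Agpat2 ratios was not tested.

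**Figure D5:**
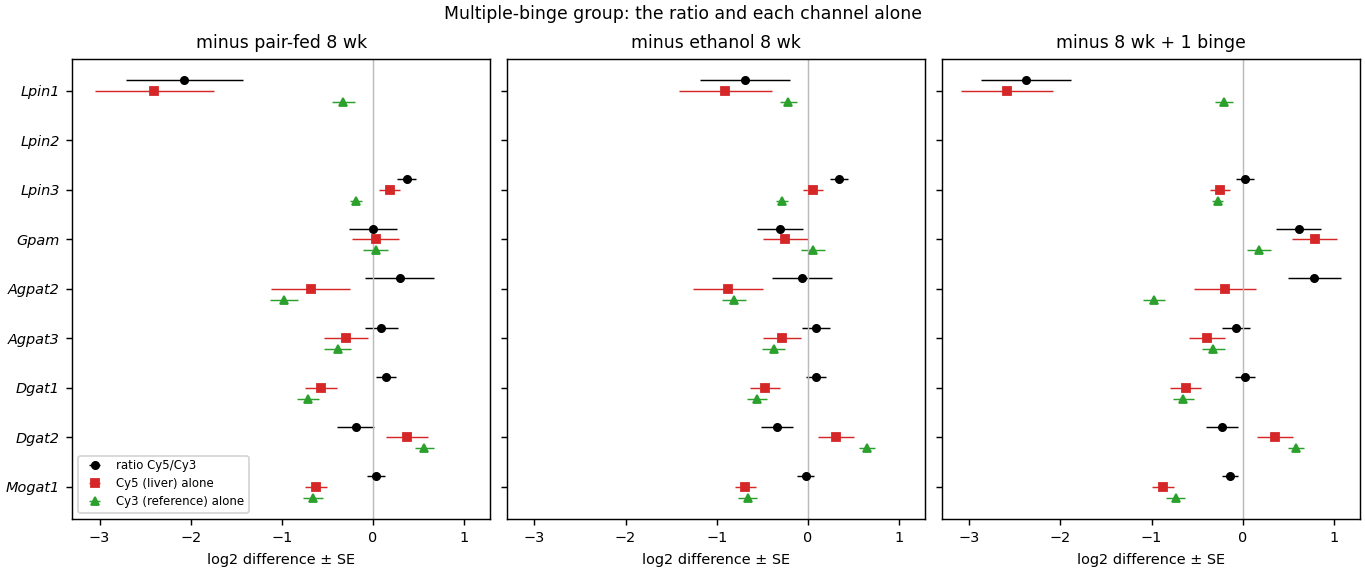
Log2 difference with its SE of each member between the multiple-binge group and each other 8-week group, for the ratio (circles), Cy5 alone (squares) and Cy3 alone (triangles); Lpin2 has no tested value. Lpin1 is low in the ratio and in Cy5 alike, while Mogat1 and Dgat1 are low in both channels with ratios near 0.

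Genes of neighbouring steps were read from 4 lists. Between the 8-week single-binge and ethanol groups, 3 of 11 other acyltransferases and phosphatidate phosphatases rose and 1 fell (median 0.06), where 15.6% of all genes were called in either direction (median 0.01). Gpat3, an endoplasmic reticulum enzyme of the same step as Gpam, rose by 1.11 ± 0.25 (limma adjusted p = 0.00294), while Gpat4 was at -0.25 (adjusted p = 0.0636). The lipid phosphate phosphatases Plpp2 and Plpp1 rose by 0.48 and 0.42, and Plpp3 fell by 0.63. These lipid phosphatases do not need magnesium, unlike the lipins.

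Against pair feeding, 3 of 10 of these genes rose and 1 fell (median 0.05), where 15.4% of all genes were called (median 0.02). Gpat3 rose by 1.48 ± 0.27 (limma adjusted p = 0.000418) and Gpat4 fell by 0.73 ± 0.10 (adjusted p = 6.74e-05). After 10 days 2 of 11 rose and 1 fell (median 0.09), where 7.01% of all genes were called (median -0.01). Gpat2 rose by 1.14, Plpp1 rose by 0.52 and Gpat4 fell by 0.49.

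Of 15 genes of the phospholipid branch, 3 rose and 5 fell between the 8-week single-binge and ethanol groups (median -0.02), where 15.6% of all genes were called. Chka, the choline kinase that opens phosphatidylcholine synthesis, rose by 2.09 ± 0.27 (limma adjusted p = 9.7e-06). Pcyt2 and Selenoi, of phosphatidylethanolamine synthesis, fell by 0.75 and fell by 0.86, and Pemt, which methylates phosphatidylethanolamine to phosphatidylcholine, fell by 0.70. Chka also rose after 10 days, by 1.83 ± 0.35 (adjusted p = 0.00155), where 1 of 15 rose and 1 fell (median -0.02) against 7.01% of all genes called.

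In that 8-week comparison, with 15.6% of all genes called, 1 of 7 tested genes of substrate supply rose and 2 fell (median -0.08): Acsl4, an acyl-CoA synthetase that favours arachidonate, rose by 0.89, Slc27a5, a fatty acid transporter and bile acid ligase, fell by 0.94, and glycerol kinase Gk fell by 0.45. Of 8 genes that regulate or partner the lipins, 3 fell (median -0.09): Srebf1, a driver of lipogenic transcription, fell by 2.33 ± 0.32 (limma adjusted p = 2.04e-05), Ppara, the fatty acid oxidation receptor, fell by 1.06, and the glucocorticoid receptor Nr3c1 fell by 0.52. Ctdnep1 and Ppargc1b, a lipin phosphatase and a coactivator, were at 0.17 and -0.25 and did not pass. Srebf1 differed by 0.65 ± 0.41 after 10 days (adjusted p = 0.432), and its interaction between durations was -3.37 (adjusted p = 0.000344).

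In the multiple-binge group Gpat3 rose by 1.27 and Chka by 1.61 against pair feeding, and Srebf1 fell by 1.38 (limma adjusted p = 0.00297, 0.000865 and 0.00821), with 2.05, 2.09 and -3.12 in Cy5 alone. These carry the session limit given above.

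Listed markers of other cells were also called between the 8-week single-binge and ethanol groups, where 15.6% of all genes were. In that comparison 2 of 7 adipocyte markers fell (Cfd fell by 1.42, Car3 fell by 1.29). Of 8 sinusoidal endothelial markers, 3 rose and 2 fell (Lyve1 rose by 2.44, Clec4g fell by 0.87). There 2 of 8 neutrophil markers rose and 1 fell, 1 of 8 stellate cell markers rose and 2 fell, and 1 Kupffer cell marker and 1 pancreas and gut marker fell. The mean log2 ratio of the adipocyte list was -0.08 to 0.69 over ethanol arrays and -0.18 to 0.15 over single-binge arrays, that of the endothelial list -0.24 to -0.11 and -0.38 to 0.13, and that of the neutrophil list -0.15 to 0.04 and -0.22 to 0.33. Leptin was well above background on 23 arrays and S100a8 on 11. Of 6 hepatocyte markers tested, 1 rose (Tat). The part of these cells in the Lpin1, Lpin3 and Gpam differences was not tested. Whether hepatocytes also express listed markers of other cells, such as Car3, was not tested either.

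Listed markers were also called in the comparisons of the other calls. Of all genes, 7.01% were called after 10 days and 15.4% for 1 binge against 8-week pair feeding. For multiple binges, 20.8%, 30.0% and 25.4% of all genes were called against pair feeding, 1 binge and ethanol. The counts below stand beside these shares. After 10 days, where Dgat1 was called, 3 of 8 endothelial markers rose (Lyve1 by 1.24), with list means of -0.48 to -0.29 in pair-fed and -0.03 to 0.15 in single-binge arrays. There 1 adipocyte (Car3, by 2.26), 1 stellate, 1 lymphocyte and 1 hepatocyte marker also rose, and none fell. Against 8-week pair feeding, where Lpin2 and Lpin3 were called, 2 of 8 endothelial markers rose and 2 fell, 2 neutrophil and 1 adipocyte marker rose, and 2 Kupffer cell, 2 pancreas and gut and 1 stellate marker fell. In the multiple-binge group against pair feeding, 2 of 7 adipocyte markers fell (Cfd fell by 2.21), with list means of -0.54 to -0.24 against -0.19 to 0.13. In that comparison 2 neutrophil markers rose and 3 fell, 2 endothelial rose and 1 fell, 2 lymphocyte rose and 1 fell, and 2 stellate, 2 pancreas and gut and 1 Kupffer cell marker fell. Against 1 binge, 2 adipocyte and 3 stellate markers fell, 1 neutrophil rose and 3 fell, 2 endothelial rose and 2 fell, 1 Kupffer cell and 1 lymphocyte marker rose and 1 of each fell, 1 hepatocyte marker rose and 1 pancreas and gut marker fell. Against ethanol, 3 adipocyte markers fell, 1 neutrophil rose and 3 fell, 2 endothelial rose, 1 stellate rose and 2 fell, 2 lymphocyte rose and 1 fell, and 1 Kupffer cell marker fell. The part of these cells in the Dgat1, Lpin1, Lpin2, Lpin3 and Agpat2 differences was not tested.

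For each member called anywhere, the genes most alike over the arrays were found among 16876 genes tested in all groups, by Pearson's r of the ratio, as a description with no test. They were Csnk1g3 (r = 0.853, 22 arrays), Lurap1l and Cnst for Lpin1, and Stradb (0.920, 19 arrays), Micu2 and Txnl4b for Lpin2. For Lpin3 they were Nt5c2 (0.845, 23 arrays), Mpzl1 and Wwtr1, for Gpam Abcg8 (0.879, 20 arrays), Dnase2b and Exoc1, for Agpat2 Ebpl (0.911, 19 arrays), Slc46a1 and Tmed10, and for Dgat1 Ubxn6 (0.883, 24 arrays), Inca1 and Slc22a21. Among the members themselves, with marked spots kept, Gpam and Agpat2 were most alike (r = 0.69 over 24 arrays), then Agpat3 and Dgat1 (0.64), and Lpin1 and Agpat2 were most opposed (-0.57). These arrays share group differences and scan sessions.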

How the data were processed

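Spot intensity was read by Agilent Feature Extraction 11.5.1.1, per the submitters' processing notes and the file headers. The authors' deposited files hold median spot and background intensity for both channels and the log10 ratio of Cy5 over Cy3 made by that software. The deposited table of log2 values followed that scanner ratio with a slope of 1.00 to 1.01 in each column, and the values had column medians from -0.09 to 0.07. The scale and direction of the table thus match the scanner ratio, and how it was centred is not given in the sources used here.

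Ratios were recomputed in limma 3.58.1 (R 4.3.3; statmod 1.5.0): normexp background correction with offset 50, loess within arrays, no scaling between arrays, and marked spots (1.34% to 7.64% per array; 17.1% of 456 member spots) left out. Each channel alone was scaled with Aquantile. A probe was kept where 3 or more arrays had it well above background in the liver channel (36620 of 41174), and each gene was read from its brightest probe among those with 2 or more measured arrays in all groups, or, with no such probe (as for Lpin2), from its brightest kept probe. A gene was tested where both groups of a comparison had 2 or more measured arrays, and 16876 genes were tested in all groups. These 3 choices were made after the study's files were seen. Of the probes, 28006 had 1 symbol through GRCm38.p6 gene names, 104 several and 13064 none. No spot was saturated (0), and 0 pairs of arrays were identical.

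A fit of 6 group means over 24 arrays gave 9 comparisons with Benjamini-Hochberg adjustment over all genes tested (called under 0.05). The fit was tested on simulated data. The named genes were all 9 members, list genes that passed (at most 4 per comparison, plus up to 2 that did not) and the 3 most alike genes of each called member. Which of them the text prints, and for which comparisons, was chosen after their values were seen. Members and lists were chosen with earlier results of these data known. List genes with no mapped probe were not analysed here.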

Additional observations from a re-analysis of the deposited data

Results flagged for a closer look

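Agpat3 in 8-week ethanol replicate 2 was at -0.38 (log2 Cy5/Cy3), apart from the other 3 unmarked arrays of its group at -0.15 to -0.12. It was the 1 value so far from its group among 28 groups of member values scanned. Chance alone gives about 1 in 20 groups, so 1 among 28 is not rare. Replicate 5, left out as a marked spot, was at -0.27 with marked spots kept.

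Dgat1 differed between the durations in its difference from pair feeding after ethanol plus 1 binge, with an interaction of 0.67 (8 weeks minus 10 days, limma adjusted p = 0.0254). The call was lost in 11 of 30 alternatives, with adjusted p-values from 0.00791 to 0.305 over all of them. The durations lay in different scan sessions, whose part was not tested.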

How the results depend on the processing

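The share of all genes called depends on the setting. For 8-week single binge, 15.4% and 15.6% were called in the ratio against pair feeding and ethanol, and 8.55% and 8.19% in Cy5 alone. For multiple binges, 20.8%, 25.4% and 30.0% were called in the ratio against pair feeding, ethanol and 1 binge. In Cy5 alone these were 49.8%, 52.5% and 52.1%. Shares under other settings are not given here. The larger moves in the counts of members called were as follows, and smaller moves are not all listed. Between the 10-day groups the count of 1 became 0 in Cy5 alone and with median centring, and 2 with array weights or only the groups compared. For 8-week single binge against pair feeding, 2 became 1 in Cy5 alone, with median centring and with the slide or the replicate block. It also became 1 with only the groups compared. Against ethanol, 3 became 1 with only the groups compared, and 2 in Cy5 alone or with the slide as a fixed block. There Lpin2 joined the calls with the slide as a random block, and Agpat2 with marked spots kept. For multiple binges, the count of 2 against pair feeding became 1 with median centring or only the groups compared; the count of 1 against ethanol became 2 in Cy5 alone, with array weights or only the groups compared, and 0 with median centring; and the count of 2 against 1 binge became 4 in Cy5 alone and 1 with no filter, the mean of all probes, the slide as a random block or only the groups compared. The interaction count of 1 became 0 in Cy5 alone, with median centring, the scanner log ratio, the deposited values, the slide as a fixed block or only the groups compared. Leaving out 1 array gave 0 to 1 members (10 days), 0 to 2 (single binge against pair feeding), 2 to 4 (against ethanol), 1 to 2, 0 to 1 and 1 to 3 (multiple binges against pair feeding, ethanol and 1 binge) and 0 to 1 (interaction). In Cy5 alone 13 of 24 multiple-binge values had the opposite sign to the ratio. Of these, Agpat2 against 1 binge (-0.19) was called in the ratio, and Dgat1 (-0.57, -0.47 and -0.63 against pair feeding, ethanol and 1 binge) and Mogat1 (-0.63 against pair feeding) in Cy5 alone; the others were called in neither. The cause of these changes was not tested.

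Of 1809 member values under alternatives, 1730 kept their side of the threshold, 51 lost it, 23 gained it and 5 turned sign with a call in at least 1 setting; 121 others, called under neither setting, also changed sign and are counted with the 1730. Replicate numbers showed little pairing of the arrays: 17 of 52 same-number pairs correlated over 0.1, and 6 of 24 arrays were best correlated with their own number. Arrays on the same slide were more alike: 15 same-slide pairs from different groups had a median r of 0.165, against 0.028 for same-number pairs. Some pairs are in both sets, as replicate numbers often followed slides, so slide and number cannot be fully told apart. The main fit held no slide term. With the replicate block Lpin2 was at -1.10 (limma adjusted p = 0.0721) for single binge against pair feeding. The number of arrays limits the precision.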
